A study of Mus musculus with 6 samples.

Results

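The genes of the voltage-gated sodium and calcium channels were examined in oligodendrocyte lineage cells of WT and Npc1-/- mice. They were chosen by symbol from the 55492 genes of the expression table: sodium channel alpha and beta subunits (Scn followed by a number and a or b) and calcium channel alpha1 (Cacna1), alpha2delta (Cacna2d), beta (Cacnb) and gamma (Cacng) subunits. Of the 40 genes found 38 are described: 9 encode sodium channel alpha subunits, 3 sodium channel beta, 10 calcium channel alpha1, 4 alpha2delta, 4 calcium channel beta and 8 gamma subunits. The symbols alone set the choice, though earlier results of these data were known when it was made. RNA came from cells captured with O4 microbeads from whole brains of mice at postnatal day 16. There were 3 libraries of each genotype, which the methods call biological replicates without giving the number of mice in each. The Npc1-/- mice were homozygous for the null allele Npc1nih and were F1 hybrids of heterozygous parents on the BALB/cJ and the C57BL6/J backgrounds, and the WT mice were littermates. Npc1, the cholesterol transporter of late endosomes and lysosomes, was lost in all cells of these animals, not in the captured cells alone.

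The pore of a voltage-gated sodium or calcium channel is a single large alpha protein that opens when the membrane depolarises, and the smaller subunits set its trafficking, anchoring and gating. Sodium channels drive the action potential and cluster at the axon initial segment and at nodes of Ranvier. Oligodendrocyte precursors carry voltage-gated sodium and calcium channels of their own and lower them as they mature. Most of the proteins named gamma subunits are transmembrane AMPA receptor regulatory proteins (TARPs), which accompany AMPA-type glutamate receptors.

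Expression was given as TPM, transcript abundance per unit of transcript length on a common total. Npc1 itself was at 45.5 to 53.3 TPM in the WT and 3.16 to 4.42 TPM in the Npc1-/- libraries. Depth, read from the steps of the low values, was 40500000 to 50500000 fragments a library, and for an effective length of 8000 bases a level of 0.5 TPM rested on 108 to 145 fragments. Myelin basic protein (Mbp) alone took 18.8% to 26.1% of all TPM. Levels are therefore given as scaled TPM, which is TPM divided by a size factor per library. Npc1-/- replicate 3 was the only library with the female transcript Xist (15.6 TPM, against at most 0.01 in the others) and the only one with Ddx3y, a Y-linked gene, at 0. The markers of the labelled cells were high in both genotypes: the summed scaled TPM of Olig1, Olig2, Sox10 and Nkx2-2 was 829 to 1013 in WT and 849 to 978 in Npc1-/- libraries. Pan-neuronal markers were present too, with a summed level of 218 to 267 in WT and 292 to 368 in Npc1-/- libraries.

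The channel genes were unequally expressed, and the auxiliary subunits far outweighed the pores. The 19 pore genes (sodium alpha and calcium alpha1) made up 11% to 16.9% of the summed TPM of the 38 genes, while the gamma class made up 57.7% to 64.2%. Cacng7, a type II TARP, was the most abundant of them and held 41.3% to 49.3% of the sum on its own. Its mean over the 6 libraries was 93.2 TPM, and others among the 38 were Cacng4 (29.1 TPM), Cacnb3 (22.8 TPM), Cacnb4 (9.29 TPM) and Scn8a (6.37 TPM). Scn8a encodes the sodium channel of mature nodes of Ranvier, and its level exceeded that of the next sodium channel pore, Scn2a (1.31 TPM), in each library.

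**Figure D1:**
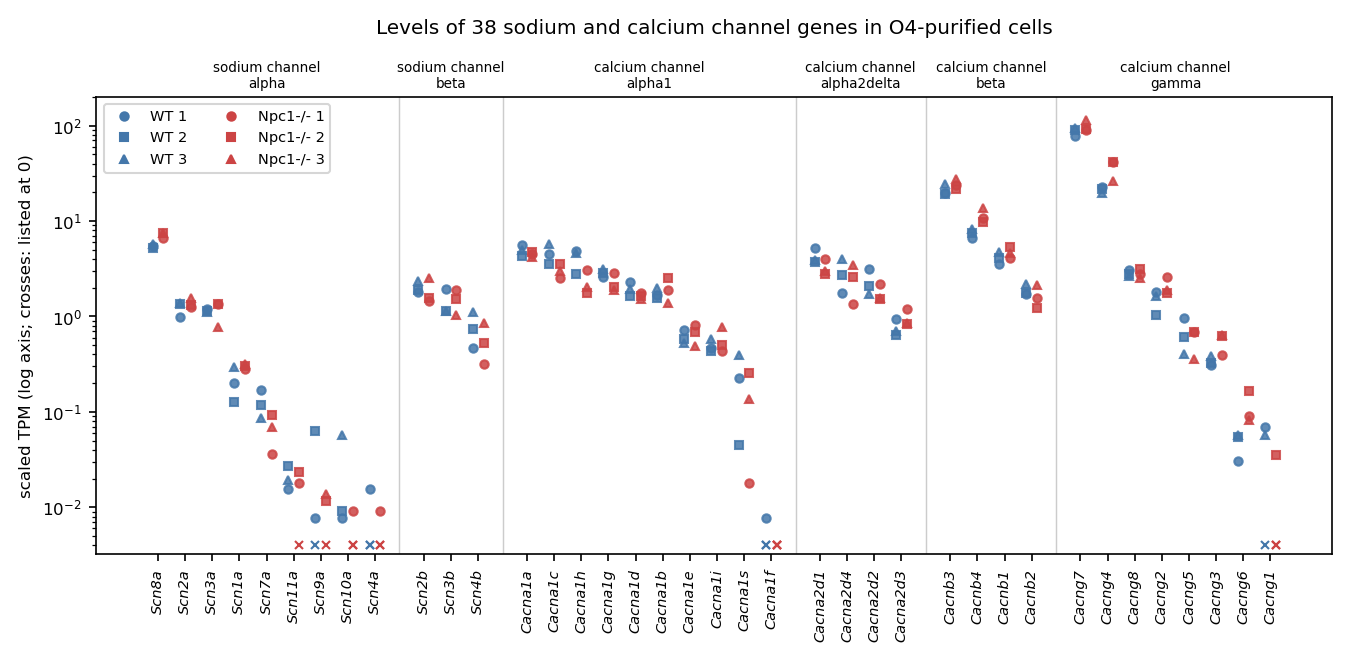
Scaled TPM (log axis) of the 38 genes in each library, grouped by subunit class and ordered by mean TPM within a class; blue marks WT, red Npc1-/-, the marker shape gives the replicate number and crosses mark values listed at 0. Cacng7 is the highest of them in every library, and most sodium channel alpha genes lie below a TPM of 0.5.

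The filter used for testing, a mean TPM over all libraries of at least 0.5, was passed by 27 of the 38 members. The 11 that did not pass had means of 0.00167 to 0.433 TPM and no single value above 0.53 TPM. They were the sodium channel pores Scn1a, Scn4a, Scn7a, Scn9a, Scn10a and Scn11a, the calcium channel pores Cacna1f and Cacna1s, and the gamma genes Cacng1, Cacng3 and Cacng6. Among them are the skeletal muscle pores Scn4a and Cacna1s, the retinal pore Cacna1f and the sensory neuron pores Scn9a, Scn10a and Scn11a. At least 1 value was listed at 0 in 6 of the 11. Cacna1f was listed at 0 in all 3 Npc1-/- libraries and at 0.01, 0 and 0 TPM in WT replicates 1 to 3. Scn1a, a pore of inhibitory neurons, had a mean of 0.252 TPM. Just inside the filter was Cacna1i (0.525 TPM), and just outside it was Cacng3 (0.433 TPM).

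Levels differed sharply between neighbouring genes. Cacng7, Cacng8 and Cacng6 lie next to each other within 102.7 kb (GRCm38, chr7:3332955-3435667). Their mean levels were 93.2, 2.90 and 0.0767 TPM, so the highest was 1216 times the lowest. The cluster of Cacng1, Cacng4 and Cacng5 (chr11:107703218-107915055) spans 211.8 kb and held 0.030, 29.1 and 0.662 TPM. Within Scn3a, Scn2a, Scn1a, Scn9a and Scn7a (chr2:65457118-66784914), Scn2a and Scn3a were at 1.31 and 1.2 TPM and Scn9a at 0.0167 TPM.

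Stretches upstream of a RefSeq transcript start are shown for the most abundant member and the most abundant pore gene. RefSeq windows (build GRCm38.p6) matched 30 of the 38 members. Each line below gives the 250 bases before the start, in the direction of transcription on the plus strand, with every CG dinucleotide in capitals. The first lies at chr7:3332575-3332824 and the second at chr15:100870395-100870644, and neither overlaps an annotated exon. The first precedes the annotated gene, whereas the second lies within the span of Scn8a, downstream of its first annotated base, and is 1 of 2 RefSeq windows of that gene.
Cacng7: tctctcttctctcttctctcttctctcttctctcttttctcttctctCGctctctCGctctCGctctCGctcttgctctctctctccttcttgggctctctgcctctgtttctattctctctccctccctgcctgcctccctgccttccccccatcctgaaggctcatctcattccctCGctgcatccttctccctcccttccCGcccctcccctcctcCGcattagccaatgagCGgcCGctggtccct
Scn8a: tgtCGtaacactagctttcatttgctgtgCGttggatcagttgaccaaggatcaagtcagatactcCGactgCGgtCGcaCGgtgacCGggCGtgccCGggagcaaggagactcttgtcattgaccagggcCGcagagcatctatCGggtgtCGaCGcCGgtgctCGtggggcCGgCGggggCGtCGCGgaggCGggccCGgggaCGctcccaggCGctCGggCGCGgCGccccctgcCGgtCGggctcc
The Cacng7 window holds 9 CG dinucleotides and opens with a pyrimidine-rich repeat. That of Scn8a holds 30. As many or more were found in 40.3% and 5.94% of the 32841 RefSeq windows of the same length, in which the median was 6. The other Scn8a window (chr15:100936021-100936270) holds 9, as many as that of Cacng7.

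To ask whether loss of Npc1 alters these genes, the libraries of both genotypes were compared with limma over all 15245 genes that passed the filter. No member passed the threshold (adjusted p under 0.05, with a log2 fold change of 0.1 or more in size), against 0.813% of all genes tested (124 of 15245). At an unadjusted p below 0.05 there were 5 of 27 members, or 18.5%, against 22.2% of all genes. Of these, 3 were higher and 2 lower in Npc1-/-, against 10.6% and 11.6% of all genes. In 4 of 27, or 14.8%, the values of both genotypes did not overlap, against 27.5% of all genes, with 3 higher and 1 lower (13.3% and 14.2% of all genes). At an adjusted p below 0.1 there were 3 of 27 (11.1%), against 8.95% of all genes. As a group the members thus stood near or below the background of the table in 3 of these 4 counts. Log2 fold changes (Npc1-/- minus WT, on the scale of log2 of scaled TPM plus 0.5) were above 0 in 13 of 27 members and below 0 in 14, against 51% and 49% of all genes, with a median of -0.00 against 0.01. On TPM as deposited, without size factors, the medians were -0.26 for the members and -0.33 for all genes, so each difference below is relative to the other genes. Fewer cells of a type and less RNA per cell cannot be told apart in such bulk libraries.

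**Figure D2:**
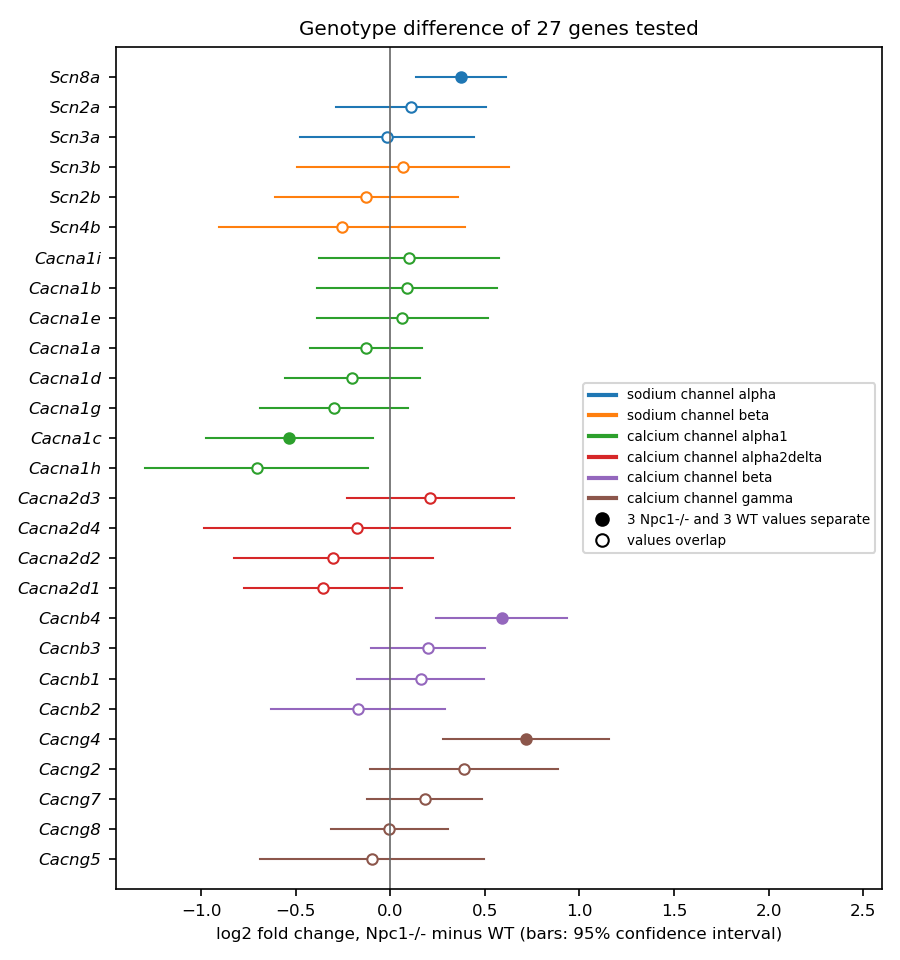
Log2 fold change between Npc1-/- and WT (points) with its 95% confidence interval (bars) for the 27 members tested, coloured by subunit class; filled points mark members whose values do not overlap between genotypes. The intervals of Scn8a, Cacnb4 and Cacng4 lie above 0 and those of Cacna1c and Cacna1h below 0, and no member passed the adjusted threshold.

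Sodium channel alpha subunits formed a small pool dominated by Scn8a (chr15:100869858-101045938, plus strand). Its scaled TPM was 5.49, 5.26 and 5.72 in WT replicates 1 to 3 and 6.72, 7.59 and 7.51 in the Npc1-/- replicates. Every Npc1-/- value exceeded every WT value. The fold change was 0.38 on the log2 scale (SE 0.10, 95% confidence interval 0.14 to 0.61, adjusted p = 0.0916) and did not pass the threshold. The ratio of the mean scaled TPM was 1.33. On TPM as deposited Scn8a was at 7.11, 5.82 and 5.94 in WT and 7.4, 6.49 and 5.46 in Npc1-/- libraries, which overlapped. The log2 fold change was then 0.03 (adjusted p = 0.928 by limma), with a median of -0.33 over all genes. Scn2a, the pore of immature axon initial segments, was at 0.980, 1.36 and 1.39 in WT and 1.26, 1.31 and 1.56 in Npc1-/- libraries. These values overlapped, and the log2 fold change of 0.11 had an interval of -0.28 to 0.51 (adjusted p = 0.757). Scn3a, the pore of embryonic neurons, had a log2 fold change of -0.02 (-0.48 to 0.45). The ratio of Scn8a to Scn2a was 4.53 ± 0.939 (SD, n = 3) in WT and 5.32 ± 0.481 in Npc1-/- libraries. These ratios overlapped (two-sided exact permutation p = 0.3, in a test that cannot go below 0.1 with 3 against 3 libraries).

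Sodium channel beta subunits are single-pass proteins with an immunoglobulin domain that bind the pore. Scn2b, which binds it through a disulfide bond, was at 1.82, 1.91 and 2.37 in WT and 1.44, 1.58 and 2.55 in Npc1-/- libraries. Npc1-/- replicate 3 was the highest of all and the other two the lowest, so the genotypes overlapped, and the log2 fold change was -0.13 (-0.61 to 0.36, adjusted p = 0.776). Scn3b was at 1.93, 1.13 and 1.15 in WT and 1.91, 1.52 and 1.05 in Npc1-/- libraries. Replicate 1 was the highest of both genotypes, and the log2 fold change was 0.07 (-0.49 to 0.63, adjusted p = 0.902). Scn4b had a log2 fold change of -0.26 (-0.91 to 0.40).

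Calcium channel alpha1 pores were split by direction, with 3 log2 fold changes above 0 and 5 below, and a median of -0.16. The most abundant, Cacna1a, is the P/Q-type pore of many presynaptic terminals and of Purkinje cells. It was at 5.65, 4.30 and 5.04 in WT and 4.53, 4.74 and 4.25 in Npc1-/- libraries, overlapping, with a log2 fold change of -0.13 (-0.43 to 0.17, adjusted p = 0.612). Cacna1c, an L-type pore (chr6:118587240-119196418, minus strand), was the only tested member with all Npc1-/- values below all WT values. It was at 4.57, 3.57 and 5.71 in WT and 2.51, 3.51 and 3.00 in Npc1-/- libraries, so the gap between the nearest values was narrow. The log2 fold change of -0.53 (SE 0.19, interval -0.98 to -0.09, adjusted p = 0.157) did not pass the threshold. Cacna1h, a T-type pore that opens at low voltage (chr17:25374285-25433783, minus strand), was picked out after its values were seen. Its scaled TPM was 4.88, 2.77 and 4.66 in WT and 3.09, 1.78 and 2.05 in Npc1-/- libraries, with WT replicate 2 inside the Npc1-/- range. The log2 fold change was -0.71 (SE 0.25, interval -1.30 to -0.12, adjusted p = 0.157). The remaining pores, Cacna1b (N-type), Cacna1d (L-type), Cacna1e (R-type), Cacna1g and Cacna1i (T-type), had log2 fold changes of -0.30 to 0.10, and each interval included 0.

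**Figure D3:**
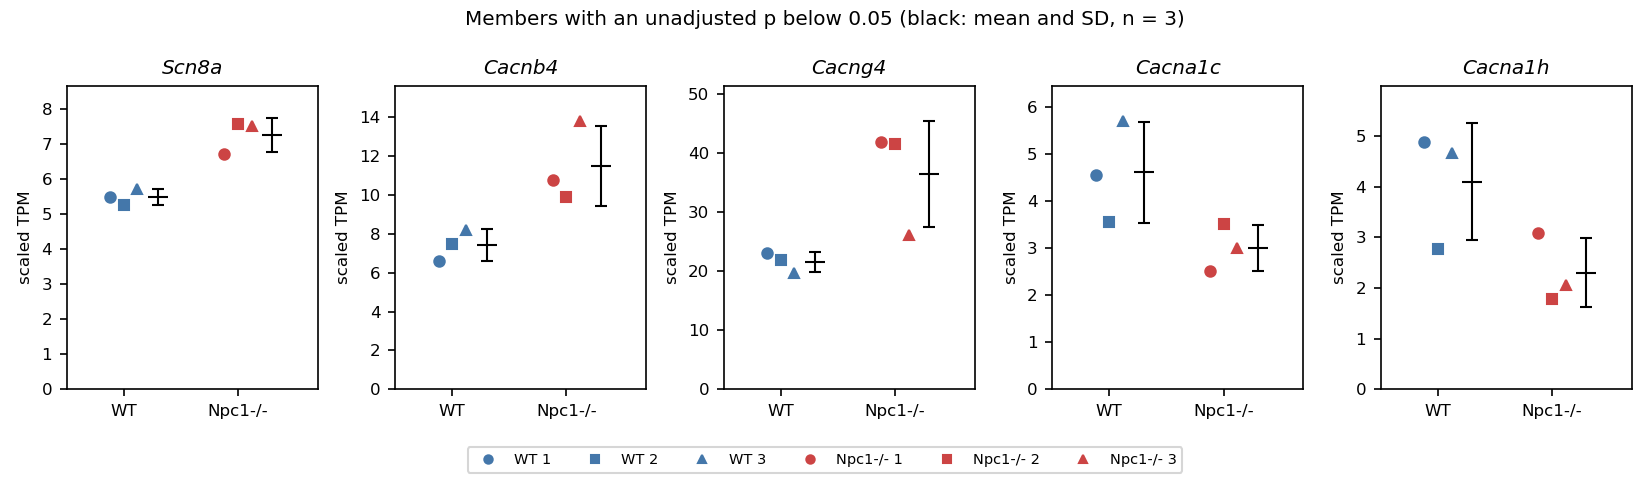
Scaled TPM (linear axis from 0) in each WT (blue) and Npc1-/- (red) library for the 5 members with an unadjusted p below 0.05, with the mean and SD of each genotype in black (n = 3). The genotypes do not overlap for Scn8a, Cacnb4, Cacng4 and Cacna1c and overlap for Cacna1h, and the Cacng4 value of Npc1-/- replicate 3 lies far below the other two.

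The alpha2delta subunits, extracellular glycoproteins that bring calcium channels to the surface and bind gabapentin drugs, had 3 log2 fold changes below 0 and 1 above. Cacna2d1, also a thrombospondin receptor, was at 5.25, 3.71 and 3.93 in WT and 3.98, 2.77 and 2.99 in Npc1-/- libraries. Only WT replicates 2 and 3 lay inside the Npc1-/- range, and the log2 fold change was -0.36 (-0.78 to 0.06, adjusted p = 0.298). Cacna2d4 varied more within a genotype than between them, with 1.76, 2.71 and 4.02 in WT and 1.35, 2.59 and 3.5 in Npc1-/- libraries. Replicate 1 was the lowest and replicate 3 the highest in both genotypes, and the log2 fold change was -0.17 (-0.98 to 0.63, adjusted p = 0.820). Cacna2d2 and Cacna2d3 had log2 fold changes of -0.30 and 0.21, with intervals that include 0.

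The calcium channel beta subunits are cytoplasmic proteins that free the pore from retention and tune its opening. Cacnb4 (chr2:52428320-52676831, minus strand) was at 6.59, 7.48 and 8.20 in WT and 10.8, 9.88 and 13.8 in Npc1-/- libraries, without overlap. Its log2 fold change of 0.59 (SE 0.15, interval 0.24 to 0.94, with a ratio of the mean scaled TPM of 1.55) had the smallest adjusted p of all members, 0.0800. The more abundant Cacnb3 was at 19.8, 19.3 and 24.2 in WT and 23.6, 21.7 and 27.6 in Npc1-/- libraries. These values overlapped, and the log2 fold change was 0.20 (-0.10 to 0.50, adjusted p = 0.419). Cacnb3 exceeded Cacnb4 in every library, by 2.85 ± 0.228 times in WT and 2.13 ± 0.114 times in Npc1-/- libraries (n = 3). No WT ratio reached down to an Npc1-/- ratio, and the two-sided exact permutation p of 0.1 is the smallest that 3 against 3 libraries can give (0.25 after adjustment over the 5 ratios tested). Cacnb1 and Cacnb2 had log2 fold changes of 0.16 and -0.17, with intervals that include 0.

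Of the gamma genes, Cacng4, a type I TARP (chr11:107732357-107794557, minus strand), was the only one tested without overlap between genotypes. Its scaled TPM was 23.0, 21.9 and 19.7 in WT and 41.7, 41.4 and 26.1 in Npc1-/- libraries. Npc1-/- replicate 3 lay nearer to the WT libraries than to its own group. The log2 fold change was 0.72 (SE 0.19, interval 0.28 to 1.16, adjusted p = 0.0861), and the ratio of the mean scaled TPM was 1.69. Without Npc1-/- replicate 3 the log2 fold change was 0.93 and Cacng4 passed the threshold (adjusted p = 0.0257 by limma). In that fit 3.13% of all genes were called. Cacng4 was the only member to pass in the 6 fits without 1 library, and the others called 0.0328% to 0.131% of all genes. All 8 markers of oligodendrocyte precursors were likewise lowest in replicate 3 within the Npc1-/- group, and 6 of them were highest in replicate 1. Of those with the largest log2 fold changes, C1ql1 was at 56.9, 49.5 and 23.5 and Lhfpl3 at 29.1, 23.3 and 15.5 in replicates 1 to 3. In WT libraries C1ql1 was at 25 to 30.6 and Lhfpl3 at 13.9 to 16.7, and both overlapped between genotypes. Ptprz1, the precursor marker with the most negative log2 fold change (-0.35), was at 39.7, 32.7 and 26.7 in Npc1-/- replicates 1 to 3. In WT libraries it was at 39.3 to 45.4, also overlapping. Of the 8 precursor markers 3 had log2 fold changes above 0 and 5 below, 0 passed the threshold (1 higher at an unadjusted p below 0.05), and their summed level was 536 to 717 in WT and 399.5 to 737 in Npc1-/- libraries. The part of precursor content in the Cacng4 difference was not tested.

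Cacng7 (chr7:3332955-3368221, plus strand) was at 77.2, 89.4 and 94.7 in WT and 90.4, 91.8 and 115 in Npc1-/- libraries. The values overlapped, and the log2 fold change of 0.18 had an interval of -0.12 to 0.49 (adjusted p = 0.465). The neighbouring Cacng8, a type I TARP of the forebrain, had a log2 fold change of -0.00 with an interval of -0.31 to 0.30. Cacng2 (stargazin, the type I TARP of cerebellar granule cells) and Cacng5 (type II) had log2 fold changes of 0.39 and -0.10, with intervals that include 0. The untested Cacng3 and Cacng6 did not overlap between genotypes, at 0.309 to 0.385 in WT and 0.399 to 0.647 in Npc1-/- for Cacng3, and at 0.0309 to 0.0578 and 0.0826 to 0.164 for Cacng6. The latter are levels of a few fragments.

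Summed by class on the scaled TPM, the gamma genes stood at 114 ± 6.77 in WT and 142 ± 4.59 in Npc1-/- libraries (SD, n = 3), and the sodium channel alpha genes at 8.29 ± 0.339 and 10.2 ± 0.493. In both classes no Npc1-/- sum was as low as a WT sum. The alpha2delta sum, in contrast, was 10.2 ± 0.995 in WT and 8.45 ± 0.636 in Npc1-/- libraries, again without overlap. Calcium alpha1 (21.6 ± 3.40 and 17.0 ± 1.32) and calcium beta sums (34.6 ± 4.14 and 42.2 ± 5.34) overlapped, as did the sums of Scn2b, Scn3b and Scn4b (4.21 ± 0.427 and 3.91 ± 0.461). On TPM as deposited the means turned for sodium alpha (9.49 and 9.08), calcium beta (39.4 and 37.3) and gamma (130.2 and 126), but not for calcium alpha1 (24.8 and 15.4), alpha2delta (11.8 and 7.56) or Scn2b, Scn3b and Scn4b (4.82 and 3.46).

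Shares of a class do not depend on the size factors, so they show how the described members of a class stood to each other within a library. Scn8a made up 67.8%, 65.0% and 65.9% of the sodium channel alpha transcripts in WT and 69.3%, 71.1% and 73.4% in Npc1-/- libraries. It was higher in each Npc1-/- library than in any WT library. Cacnb4 made up 20.8%, 22.9% and 20.9% of the calcium beta class in WT and 26.9%, 25.9% and 28.7% in Npc1-/- libraries, while Cacnb3 stood at 61.1% ± 1.78 and 57.7% ± 1.03. The share of Cacna1a among the alpha1 pores was 23.2% ± 1.96 in WT and 26.5% ± 1.06 in Npc1-/- libraries, again without overlap, while its mean scaled TPM was 5.0 and 4.51. Of the 24 shares tested, 7 had the smallest two-sided exact permutation p that the design allows, 0.1, and an adjusted p of 0.343. Those of Cacng4 (19.0% ± 2.57 and 25.8% ± 7.0) and Cacng7 (76.3% ± 3.41 and 69.8% ± 7.53) overlapped between genotypes (p = 0.3 in the same exact test).

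**Figure D4:**
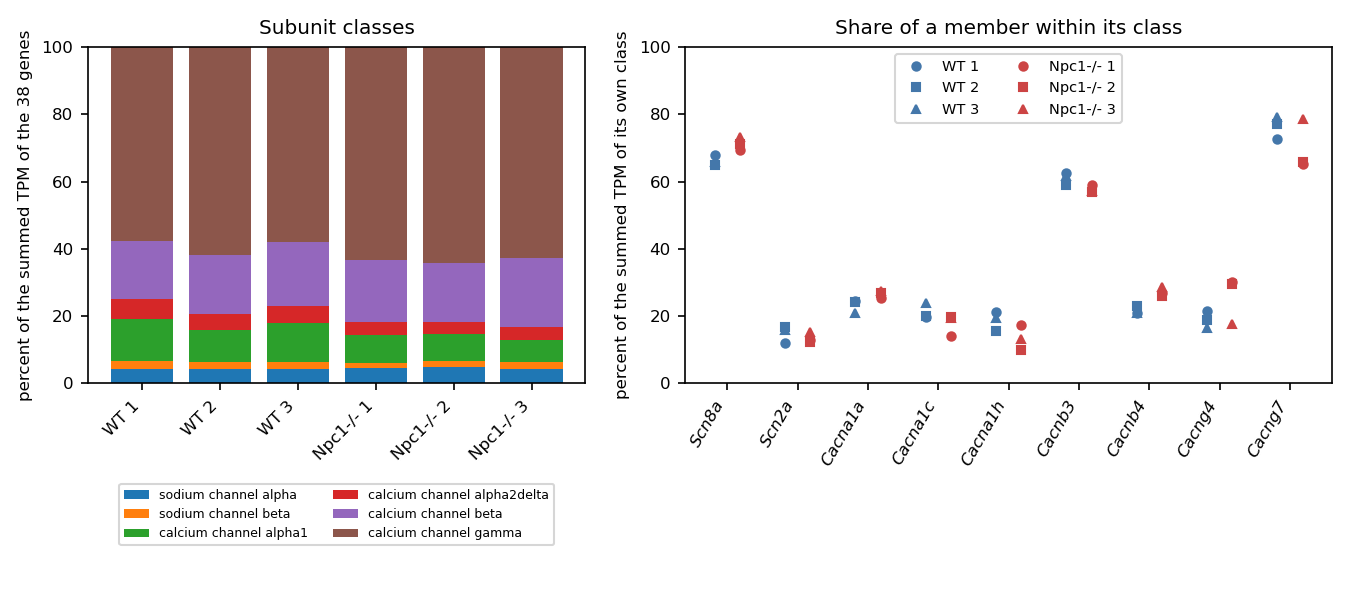
Left, percent of the summed TPM of the 38 genes held by each subunit class in each library (stacked bars from 0 to 100); right, percent of its own class held by 9 members in WT (blue) and Npc1-/- (red) libraries. Gamma transcripts make up 57.7% to 64.2%, and the shares of Scn8a and Cacnb4 are higher in every Npc1-/- than in any WT library.

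The pore genes as a whole took 16.9%, 13.8% and 15.8% of the TPM of the 38 genes in WT and 12.6%, 13.0% and 11% in Npc1-/- libraries, without overlap. Transcript length moved along with this split. The longest annotated transcript of the 11 tested pore genes had a median of 9658 bases, against 4403 for the 16 auxiliary genes. Over all genes tested, the log2 fold change was lower for longer transcripts, from a median of 0.28 in the shortest of 20 bins of equal size (median 459 bases) to -0.13 in the longest (9830 bases). With a smooth curve on transcript length removed from each library, an alternative added after the data had been seen, the medians of pore and auxiliary genes were 0.12 and 0.02, against -0.02 and 0.03 before. In that fit Scn8a had a log2 fold change of 0.52 (adjusted p = 0.0646), Cacnb4 of 0.72 (0.0604), Cacng4 of 0.74 (0.0840), Cacna1c of -0.38 (0.339) and Cacna1h of -0.58 (0.221), by limma with Benjamini-Hochberg adjustment. The 3 positive differences were thus larger than before and the 2 negative ones smaller. On TPM as deposited, where the median of all genes was -0.33, the 3 positive differences were smaller and the 2 negative ones larger. They were 0.03 for Scn8a (adjusted p = 0.928), 0.24 for Cacnb4 (0.436), 0.35 for Cacng4 (0.420), -0.86 for Cacna1c (0.0608) and -1.02 for Cacna1h (0.0960), by limma.

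**Figure D5:**
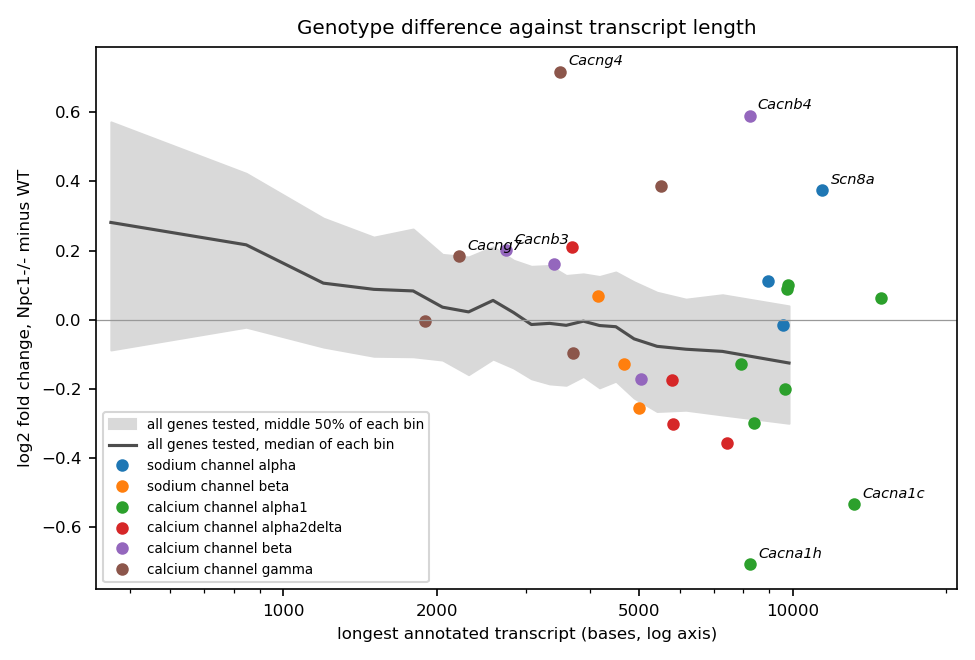
Log2 fold change between Npc1-/- and WT of the 27 members tested (points, coloured by class) against the longest annotated transcript in bases (log axis); the line and the band give the median and the middle 50% of all genes in 20 bins of equal size. The line goes from 0.28 to -0.13 with length, Cacnb4 lies above and Cacna1h below the band at about the same length, and Scn8a and Cacna1c are longer than the centre of the last bin.

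Markers of other cell types in the captured material differed between genotypes too. Over all genes tested 0.813% passed the threshold, and 13.3% were higher and 14.2% lower without overlap. At an unadjusted p below 0.05 in limma, 10.6% were higher and 11.6% lower. Of 12 pan-neuronal markers 2 passed the threshold, both higher in Npc1-/- (Nefl and Nefm, log2 fold changes 1.22 and 1.11). Without overlap 3 were higher and 1 lower (Map2, -0.31). Of 8 Purkinje cell markers 3 passed the threshold, all higher (Pcp2, Car8 and Pvalb). Without overlap 6 were higher and 1 lower (Itpr1, -0.72), while Gad1 overlapped (0.07). The summed level of the Purkinje cell markers was 225 to 258 in WT and 625 to 744 in Npc1-/- libraries. Most of it was Pcp2, at 164 to 193 and 511 to 614. The markers of granule neurons (0 of 6 called), cortical projection neurons (0 of 5) and interneurons (0 of 5, with Vip listed at 0 in a WT library) had overlapping sums, and none of them reached an unadjusted p below 0.05 in limma. Scn8a and Cacnb4 are genes of neurons as well, and the part of neuronal RNA in their values was not tested. All 7 endothelial and mural markers were lower in every Npc1-/- than in any WT library, with a summed level of 1031 to 1421 in WT and 625 to 768 in Npc1-/-, though none passed the threshold (7 of 7 at an unadjusted p below 0.05). All 6 markers of microglia and macrophages were likewise lower, with 2 called (Tmem119 and Mrc1) and sums of 139 to 225 and 58.9 to 111. Of the 6 astrocyte markers 0 were called (1 higher and 2 lower at an unadjusted p below 0.05). Without overlap Gfap was higher and 4 were lower (Aqp4, Aldh1l1, Slc1a3 and Gja1), and the sums, which Gfap and Aldoc dominate, overlapped. Smooth muscle and pericytes use Cacna1c and Cacna1h, and the part of vascular RNA in their lower values was not tested. Maturing oligodendrocyte markers had 0 of 8 called (1 higher at an unadjusted p below 0.05), with overlapping sums.

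Proteins that work with the channels were examined by 5 lists. None of the genes on them passed the threshold in limma. At an unadjusted p below 0.05, 3 of 15 tested sodium channel partners were higher and 0 lower. The counts were 0 and 5 of 16 calcium channel partners and 0 and 1 of 9 related cation channels. They were 2 and 2 of 11 AMPA receptor genes and 4 and 5 of 17 extrusion genes. Over all genes tested 10.6% were higher and 11.6% lower. Among 15 tested partners of sodium channels, 4 were higher in all Npc1-/- libraries than in any WT library and 1 lower, against 13.3% and 14.2% of all genes, with a median log2 fold change of 0.17. The largest differences were those of membrane scaffolds, which hold sodium channels at the initial segment and the node. Sptbn4 (beta-IV spectrin) was at 22.8, 22.7 and 29.2 in WT and 42.9, 33.1 and 49.9 in Npc1-/- libraries, a log2 fold change of 0.73 (SE 0.17, adjusted p = 0.0709). Ank3 (ankyrin-G) was at 154, 173 and 177 in WT and 248, 205 and 279 in Npc1-/- libraries, a log2 fold change of 0.53 (SE 0.13, adjusted p = 0.0823). Ank2 had a log2 fold change of 0.39 (adjusted p = 0.0853) and the calmodulin gene Calm2 of 0.22 (adjusted p = 0.243). Nfasc, which encodes the adhesion protein neurofascin, overlapped between genotypes (-0.26, adjusted p = 0.442).

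Of the 16 tested partners of calcium channels, 14 had log2 fold changes below 0 and 2 above, with a median of -0.13. Without overlap 0 were higher and 4 lower, against 13.3% and 14.2% of all genes. These 4 were the thrombospondins Thbs1 (-0.62, adjusted p = 0.0891) and Thbs2 (-0.54, 0.123), secreted ligands of alpha2delta proteins, and the small GTPases Rrad (-0.59, 0.0981) and Gem (-0.54, 0.175), which inhibit calcium channels. Among 11 AMPA receptor subunits and other auxiliaries, 2 were higher and 1 lower without overlap, and the median was 0.13. Cnih3 (0.64, adjusted p = 0.142) and Cnih2 (0.43, 0.117), cornichons that share the AMPA receptor with TARPs, were the higher ones, and the receptor subunit Gria4 (-0.20, 0.208) the lower one. Related cation channels (9 tested) had 1 of each, Fam155a (0.19, 0.364), a subunit of the sodium leak channel, and the endolysosomal Tpcn1 (-0.34, 0.219).

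Pumps and exchangers that extrude sodium and calcium had the lowest median of the 5 lists, -0.28 over 17 genes, with 3 higher and 5 lower without overlap, against 13.3% and 14.2% of all genes. Atp1b3, a beta subunit of the sodium pump, was at 58.0, 64.6 and 69.7 in WT and 88.9, 106 and 137 in Npc1-/- libraries, a log2 fold change of 0.76 (adjusted p = 0.0623). The other beta subunit with separate values, Atp1b2, an astrocyte gene, was at 192, 146 and 151 in WT and 87.9, 99.3 and 119 in Npc1-/- libraries (-0.67, adjusted p = 0.0678). The plasma membrane calcium pump Atp2b4 had a log2 fold change of -0.85 (adjusted p = 0.0678), and the pump regulator Fxyd7 of 0.61 (0.113). Atp1b1, the third beta subunit on the list, was at 58.1, 41.6 and 43.9 in WT and 42.0, 28.7 and 36.9 in Npc1-/- libraries, overlapping (-0.41, adjusted p = 0.228).

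Several members share their position with a gene on the opposite strand, whose reads cannot be set apart unless strand was used in counting, which the methods do not state. Among the members given in every sample this concerns Scn2b (Gm10684), Scn3b (Gm47266), Cacna1a (Gm16183), Cacna1c (Dcp1b and Gm25905), Cacna1h (Tpsg1), Cacna2d1 (Gm43000 and Gm43491), Cacna2d4 (Lrtm2), Cacnb4 (Bloc1s2-ps, Gm13541 and A430018G15Rik) and Cacng4 (Gm11650). Scn2a, Scn8a, Cacnb3 and Cacng7 have no such gene on the opposite strand. On the same strand, where strand cannot set reads apart, Cacng7 overlaps Gm44256, Cacna1c Gm18981 and Cacna2d1 Gm43490.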

How the data were processed

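RNA from O4-purified cells of WT and Npc1-/- mice was analysed, with 3 libraries of each genotype. The study's methods describe trimming with bbduk, mapping to GRCm38 with STAR and assignment to genes with featureCounts. The submitters' processing notes list cutadapt 2.3, FastQC 0.11.8, STAR 2.7.8a, RSEM 1.3.3 and MultiQC 1.7. The annotation release is not given in the sources used here. The authors deposited TPM and FPKM per gene with 2 decimals, and no reads per gene were used. The deposited FPKM equal TPM times 0.653 to 0.721, a factor for each library, and served as an alternative.

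TPM was divided by median-of-ratios size factors (0.727 to 1.30, over 18690 genes above 0 in every library). Genes whose mean TPM reached 0.5 were fitted as log2(scaled TPM + 0.5) with limma 3.58.1 (trend) in R 4.3.3, with genotype as the factor, and p-values were adjusted by Benjamini-Hochberg over 15245 genes. The study's thresholds were kept: an adjusted p under 0.05, with a log2 fold change of 0.1 or more in size. Such fold changes understate those of low genes. On simulated data for this comparison, 160 of 200 genes with a log2 change of 1.5 were recovered among 15245, with 9 false calls, so smaller differences can be missed. Shares and ratios were compared by two-sided exact permutation tests over 20 arrangements, which cannot go below p = 0.1.

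Depth came from the steps between low FPKM values in genes that have 1 transcript: 80.7% to 83.3% of the values were whole fragments, to within 0.15, once transcript lengths were reduced by a fragment length of 240 or 250 bases. Without a reduction 40.4% to 44.0% were. Depth and fragment length were chosen for each library to bring these same values near whole numbers, so the percentages are no separate check of the depth. Errors are the spread between libraries.

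Values in every sample are given for tested members whose genotypes do not overlap and for the top 2 of each class, and for Cacna1h, picked out after its values were seen. From each list at most 4 genes without overlap are named, by size. Of the 40 members found 2 are not reported here and enter no count, sum or share of the members. The members and lists were chosen with earlier results of these data known. Positions and lengths are from GENCODE M21, which held 55141 of the 55492 identifiers, and sequences from RefSeq. Alternatives covered scaling, unit, pseudocount, filters, variance estimate, replicate block, sex chromosomes, transcript length and leaving out each library. Python 3.11.15 with pandas 2.3.3 and scipy 1.17.1 was used.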

Additional observations from a re-analysis of the deposited data

How the results depend on the processing

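No member was called in the analysis of the report, in any of 11 of the 12 alternatives that keep all libraries, or in 5 of the 6 fits that leave out a library. The calls numbered 3 of 27 with the replicate block (Cacng4, Cacnb4 and, lower, Cacna1h, with adjusted p of 0.0256, 0.0280 and 0.0368 by limma), where 13.2% of all genes were called, and 1 without Npc1-/- replicate 3 (Cacng4), where 3.13% were, so the range without a library was 0 to 1. Same-numbered libraries deviated together with correlations of 0.414, 0.0602 and 0.326, and 6 of 6 correlated best with their own number, but nothing in the labels ties a number to a litter or day. Of the lists, the sodium channel partners had 3 calls with the replicate block. The calcium channel partners had 2 on TPM as deposited, 1 with the block and 0 to 2 without a library. AMPA receptor genes had 1 and 1 in the first and second of these. The extrusion list had 3 on TPM as deposited, 1 with quantile normalization, 1 at a mean TPM of at least 5, 9 with the block and 0 to 2 without a library. On TPM as deposited 9 of the 27 log2 fold changes turned: Cacnb3 (-0.17), Cacng7 (-0.19), Scn2a (-0.16), Scn3b (-0.20), Cacna1b (-0.19), Cacna1e (-0.13), Cacna1i (-0.10), Cacna2d3 (-0.02) and Cacnb1 (-0.17). Without a library they ranged from -0.43 to 0.14 for Cacna2d4, which turned without WT replicate 3 (0.07) or Npc1-/- replicate 1 (0.14), and from -0.0035 to 0.17 for Scn2a, which turned without WT replicate 1, and from -0.078 to 0.26 for Scn3b, which turned without WT replicate 2 (-0.03), WT replicate 3 (-0.02) or Npc1-/- replicate 1 (-0.078). Without turning, Scn2b ranged from -0.33 to -0.00057, Cacna1a from -0.22 to -0.04, Cacna2d1 from -0.49 to -0.22, Cacnb3 from 0.10 to 0.30 and Cacng7 from 0.07 to 0.25. Calls over all genes numbered 124 in the report, 924 on TPM as deposited (54 higher and 870 lower), 2011 with the block, 447 at a mean TPM of at least 5 (5 members tested), 225 with quantile normalization, 42 without trend, 21 without a filter and 5 to 477 without a library. The cause of these moves was not tested. At 0.5 TPM the depth gives 13.5 to 36.2 fragments for effective lengths of 1000 to 2000 bases, and the part of counting error in the spread of low members was not tested.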
